A study of Mus musculus with 12 samples.

Results

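The genes described here code for the enzymes and transporters of glycolysis and for transcripts that rise when oxygen is low. They form a list of 35 genes chosen by name and function, and 32 of them were measured among the 18193 genes tested. Eno1 and Gpi1 were not analysed here, and Bnip3l was left out because each of its 3 probe sets carries a second gene name. Levels were read on 12 Affymetrix mouse genome arrays from A2C12, a lung tumour cell line derived from a C57BL/6 mouse with transgenes for both c-myc and c-raf. Which promoters drive the transgenes, and whether the line is a single clone, the labels do not state. Sorting by flow cytometry after Hoechst staining gave a side population (SP), whose membrane pumps export the dye, and the rest (non-SP). Each fraction was taken from untreated and from anti-EpCAM cells, which gave 4 groups of 3 biological replicates. Treated cells had a monoclonal antibody against mouse EpCAM, an adhesion protein of epithelial cells, at 100 µg/ml for 48 h, and untreated cells had none. Every group, untreated ones included, was stained with the Hoechst dye at 5 µg/ml for 90 min before sorting. For every group the labels also record a control with reserpine at 50 µmol/l.

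Glycolysis turns glucose into pyruvate, and tumour cells often send much of that pyruvate to lactate even with oxygen present. When oxygen falls, prolyl hydroxylases stop marking the subunit HIF-1α for degradation. The HIF-1 complex then binds hypoxia response elements and raises glucose transporters, glycolytic enzymes, lactate dehydrogenase A and the kinase PDK1, which blocks pyruvate dehydrogenase. Myc also acts on many genes of glycolysis, through E-boxes, and pump-driven dye export uses ATP.

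The replicate number tied the SP array to the non-SP array of the same treatment: their deviations from the group means correlated across genes at 0.55 to 0.844 in all 6 pairs. Such a pair of arrays is referred to as a culture in what follows, which is an inference from that correlation and not stated in the labels. Array medians ran from 5.72 to 6.06 log2 units. Both arrays of anti-EpCAM culture 2 stood apart in the 3′ minus 5′ signal of the actin control probes, a sign of RNA integrity, at 0.895 in non-SP and 1.03 in SP against at most 0.733 elsewhere. The same held for the Gapdh control probes, at 0.456 and 0.497. Of 6 epithelial markers 5 had a mean above 6 log2 units, as had 5 of 6 fibroblast markers, 3 of 6 of alveolar type II cells, 2 of 5 of leukocytes and 1 of 5 of endothelial cells. Both erythroid markers lay below it. Over the 12 arrays the summed log2 level ran from 44.77 to 48.57 for the epithelial and from 57.29 to 61.07 for the fibroblast list. The part of these marker levels in the results was not tested. Of the alveolar type II markers, Sftpc had a mean of 5.64 and Nkx2-1 of 5.55. Fewer cells of a kind and less RNA per cell cannot be told apart in such samples.

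No gene of the list differed between SP and non-SP cells or between antibody-treated and untreated cells at an adjusted p under 0.05 (limma, Benjamini-Hochberg over all 18193 genes), and neither did any other gene. The SP and non-SP arrays of 1 culture lay a mean of 0.16 log2 units apart for the median member, over 6 pairs of arrays. Arrays of the same treatment and fraction from different cultures lay 0.338 apart, over 12 pairs. The difference between cultures was the larger for 31 of 32 members, all but Pdk1 (96.9%), as it was for 91.4% of all genes, whose medians were 0.171 and 0.312. The share of members is close to that of all genes. The 3 biological replicates of each group are what the p-values rest on.

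**Figure D1:**
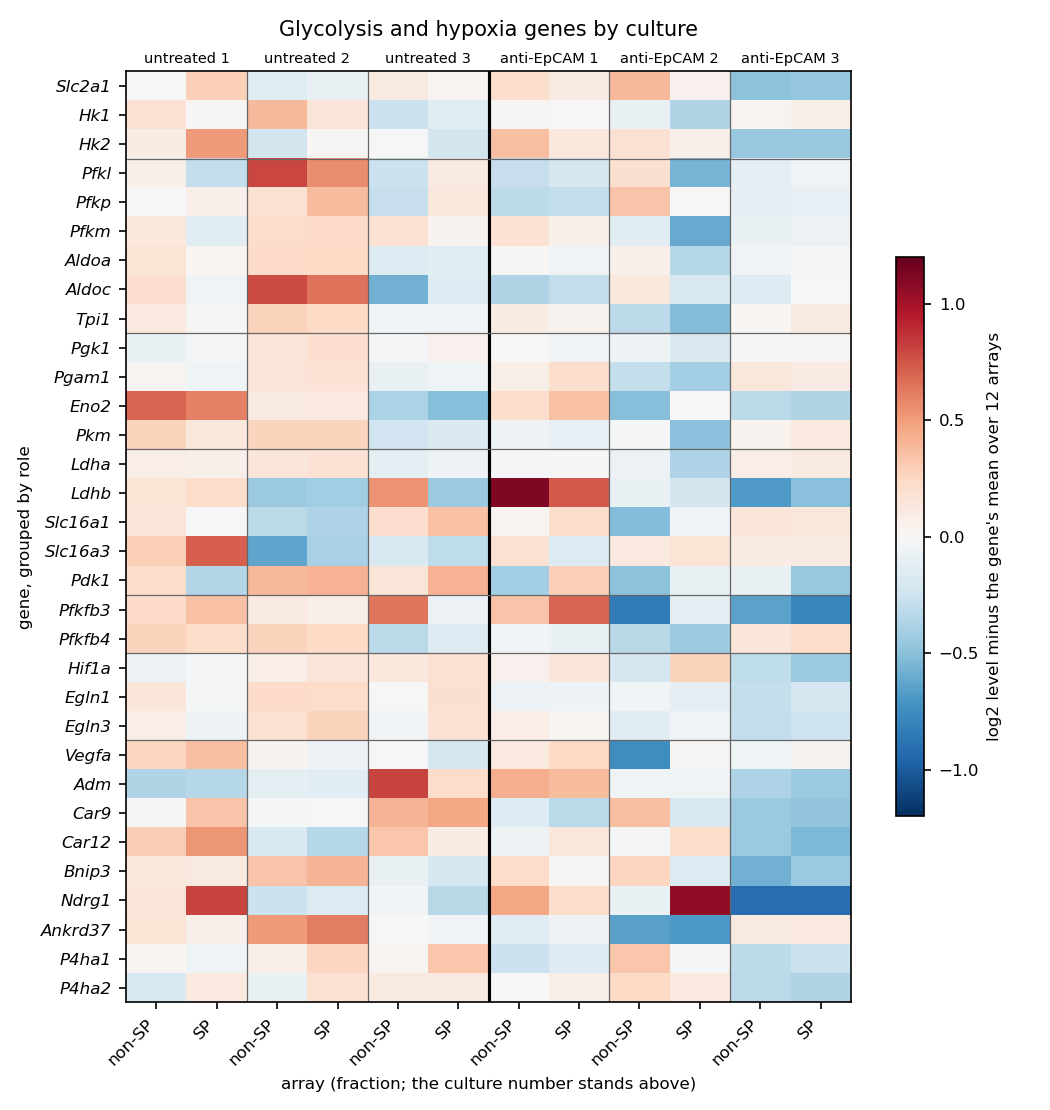
Log2 level of the 32 measured genes minus the mean of each gene over 12 arrays (colour, red above and blue below), with genes in rows grouped by role and arrays in columns grouped by culture. Both columns of a culture mostly share their colour: untreated culture 2 is red for most glycolytic enzymes, and anti-EpCAM culture 3 is blue for Slc2a1, Hk2, Ndrg1 and the carbonic anhydrases.

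To show what the promoters of these genes hold, the 250 bases before the transcription start were read from RefSeq (GRCm38.p6) for 33 of the 35 genes, Eno1 and Gpi1 included. The motif searched for was ACGTG on both strands, the core of the hypoxia response element. It stood in 23 of 47 member windows (48.9%) against 16.6% of all 32851 windows. By gene it stood in 20 of 33 (60.6%) against 18.5%. The form GCGTG stood in 53.2% of the member windows against 28.2%, and the E-box CACGTG, which holds ACGTG on both strands, in 12.8% against 6.02%. A match describes the letters and says nothing of binding in these cells. The 5 windows below hold the motif and come from genes of different roles (lactate, lower glycolysis, glucose uptake, mitochondrial removal and acid export), and capitals mark ACGTG or its reverse complement.
Ldha: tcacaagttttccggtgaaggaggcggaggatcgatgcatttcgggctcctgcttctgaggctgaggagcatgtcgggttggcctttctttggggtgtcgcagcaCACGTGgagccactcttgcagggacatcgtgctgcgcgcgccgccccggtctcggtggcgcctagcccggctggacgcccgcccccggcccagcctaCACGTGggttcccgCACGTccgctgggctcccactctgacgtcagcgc
Pgk1: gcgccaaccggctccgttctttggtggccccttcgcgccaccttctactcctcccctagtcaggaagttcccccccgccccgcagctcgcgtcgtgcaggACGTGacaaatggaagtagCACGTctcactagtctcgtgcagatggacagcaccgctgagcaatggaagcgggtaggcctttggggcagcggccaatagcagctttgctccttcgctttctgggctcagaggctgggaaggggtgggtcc
Slc2a1: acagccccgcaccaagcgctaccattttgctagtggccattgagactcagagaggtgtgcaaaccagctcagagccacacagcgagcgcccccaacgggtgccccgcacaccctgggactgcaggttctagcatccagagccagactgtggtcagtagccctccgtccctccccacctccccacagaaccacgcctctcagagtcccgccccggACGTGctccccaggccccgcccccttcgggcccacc
Bnip3: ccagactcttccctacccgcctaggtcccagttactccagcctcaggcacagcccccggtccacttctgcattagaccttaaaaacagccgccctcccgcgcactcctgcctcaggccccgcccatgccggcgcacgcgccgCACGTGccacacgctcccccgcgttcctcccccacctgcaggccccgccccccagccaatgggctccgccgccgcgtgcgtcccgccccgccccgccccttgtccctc
Car9: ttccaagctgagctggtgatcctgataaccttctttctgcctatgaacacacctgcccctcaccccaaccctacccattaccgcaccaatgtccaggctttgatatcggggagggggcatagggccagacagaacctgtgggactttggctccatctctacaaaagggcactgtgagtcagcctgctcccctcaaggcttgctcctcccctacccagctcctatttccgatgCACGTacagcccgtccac
The window of Ldha is chr7:46845554-46845803 on the plus strand and held 5 matches, the outermost starting 145 and 34 bases before the start site. They include 2 E-boxes, each counted once on either strand. A second Ldha window, chr7:46846832-46847081, held no match. The window of Pgk1 is chrX:106186850-106187099 (plus strand), with matches 150 and 131 bases before the start. Slc2a1 at chr4:119108495-119108744 (plus strand) had 1 match 36 bases before the start, and Car9 at chr4:43506776-43507025 (plus strand) had 1 at 18 bases. The 2 matches of Bnip3 at chr7:138909507-138909756 (minus strand) are a single E-box.

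Slc2a1 codes for the glucose transporter GLUT1, through which glucose enters most cultured cells. It read 11.12, 10.97 and 11.22 in untreated non-SP cells, 11.40, 11.02 and 11.14 in untreated SP cells, 11.32, 11.50 and 10.62 in treated non-SP cells and 11.22, 11.16 and 10.65 in treated SP cells. Both arrays of anti-EpCAM culture 3 were the lowest of the 12, and the other 10 overlapped across all groups. The difference by antibody was 0.04 ± 0.232 (SE) in non-SP and -0.18 ± 0.232 in SP cells. Hk2, the hexokinase isoform that HIF-1 raises, read 10.26, 9.95 and 10.16 in untreated non-SP and 10.68, 10.18 and 9.95 in untreated SP cells. It read 10.53, 10.35 and 9.71 in treated non-SP and 10.30, 10.24 and 9.72 in treated SP cells, so that anti-EpCAM culture 3 was lowest here too. Hk1, the widely expressed hexokinase, lay between 11.05 and 11.80 and was lowest in SP anti-EpCAM replicate 2 and highest in non-SP untreated replicate 2.

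Upper glycolysis splits the sugar into 3-carbon units. Among its 6 measured genes the phosphofructokinases Pfkl, Pfkp and Pfkm, which catalyse the committed step, and the aldolases Aldoa and Aldoc and triosephosphate isomerase Tpi1 were all highest in untreated culture 2. Tpi1 read 13.65, 13.81 and 13.50 in untreated non-SP cells, 13.55, 13.77 and 13.50 in untreated SP cells, 13.62, 13.22 and 13.56 in treated non-SP cells and 13.58, 13.01 and 13.64 in treated SP cells. Untreated culture 2 was the highest and anti-EpCAM culture 2 the lowest in both fractions. Aldoc read 9.93, 10.52 and 9.16 in untreated non-SP and 9.68, 10.39 and 9.59 in untreated SP cells, a spread of over 1 log2 unit among untreated non-SP arrays. It read 9.38, 9.86 and 9.58 in treated non-SP and 9.44, 9.56 and 9.74 in treated SP cells. All lay inside the range of the untreated arrays of both fractions, but treated SP replicates 1 and 2 lay below every untreated SP array. The other Aldoc probe set was dim, with a mean of 4.83, and gave antibody differences of -1.17 in non-SP and -1.32 in SP cells. The probe set used here gave -0.26 and -0.31. Pfkl, the liver-type subunit, had its highest value, 10.77, in non-SP untreated replicate 2 and its lowest, 9.41, in SP anti-EpCAM replicate 2.

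Pfkp, the platelet-type subunit, was the only upper glycolysis gene with untreated and treated SP arrays apart. It read 10.72, 11.04 and 10.78 in untreated against 10.36, 10.66 and 10.56 in treated SP cells. The difference was -0.32 ± 0.197 (SE; limma adjusted p = 1). In non-SP cells it read 10.66, 10.84 and 10.38 untreated and 10.34, 11.00 and 10.54 treated, and the groups overlapped, with a difference of 0.00 ± 0.197. For the SP readings, the array medians differed too, at 6.06 on SP untreated replicate 1 against 5.74 on SP anti-EpCAM replicate 2.

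Lower glycolysis, which yields ATP and pyruvate, was measured through Pgk1, Pgam1, Eno2 and Pkm. Pgk1, phosphoglycerate kinase, varied least of all members, with a range of 0.383 over the 12 arrays. It read 13.90, 14.13 and 13.96 in untreated non-SP cells, 13.95, 14.18 and 14.03 in untreated SP cells, 13.98, 13.92 and 13.95 in treated non-SP cells and 13.94, 13.80 and 13.99 in treated SP cells. Untreated culture 2 again held the 2 highest values. Pkm, pyruvate kinase, lay between 12.36 in SP anti-EpCAM replicate 2 and 13.13, and Pgam1, phosphoglycerate mutase, between 12.47 and 13.09. Eno2, the neuronal-type enolase, followed another order: it was highest in untreated culture 1, at 7.59 and 7.50, and lowest in non-SP anti-EpCAM replicate 2, at 6.38.

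Ldha, whose product turns pyruvate into lactate, read 13.51, 13.58 and 13.32 in untreated non-SP cells, 13.50, 13.61 and 13.37 in untreated SP cells, 13.41, 13.36 and 13.51 in treated non-SP cells and 13.45, 13.06 and 13.54 in treated SP cells. The groups overlapped and SP anti-EpCAM replicate 2 was the lowest array. Ldhb, the other lactate dehydrogenase subunit, moved over 1.80 log2 units. It read 8.72, 8.11 and 9.09 in untreated non-SP cells, 8.77, 8.14 and 8.12 in untreated SP cells, 9.68, 8.48 and 7.87 in treated non-SP cells and 9.29, 8.33 and 8.05 in treated SP cells. Anti-EpCAM cultures 1 and 3 were thus its highest and lowest, under the same treatment. The lactate carrier Slc16a1 (MCT1) lay between 12.01 and 12.88, with untreated culture 2 lowest by its mean of both fractions, and Slc16a3 (MCT4) was dim, between 4.32 and 5.67.

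Pdk1, the kinase that blocks pyruvate dehydrogenase, had the lowest unadjusted p of the list for the antibody in non-SP cells. It read 10.65, 10.82 and 10.58 in untreated against 10.02, 9.93 and 10.34 in treated non-SP cells, and the groups did not overlap. In SP cells it read 10.07, 10.84 and 10.84 untreated and 10.71, 10.34 and 9.97 treated, and here they did. The difference was -0.59 ± 0.239 (SE; 95% interval -1.10 to -0.07; limma adjusted p = 0.988) in non-SP cells, with an unadjusted p under 0.05. It was -0.24 ± 0.239 (adjusted p = 1) in SP cells and -0.41 ± 0.18 averaged over both fractions (adjusted p = 0.991). Relative to the median gene the non-SP difference was -0.49, and with each array centred on its median or quantile normalised again its unadjusted p was no longer under 0.05. It was not under 0.05 either without anti-EpCAM culture 2, where the difference was -0.50, nor when non-SP replicate 1 or 2 was left out, untreated or treated, with differences from -0.60 to -0.50. The 3 other Pdk1 probe sets also read lower after antibody in both fractions, but 2 of them had the larger difference in SP cells (-0.18 in non-SP and -0.33 in SP, and -0.45 and -0.55), so that no order between the fractions can be read. Pfkfb3 and Pfkfb4 make and break fructose 2,6-bisphosphate, the activator of phosphofructokinase. Pfkfb3 read 6.76, 6.63 and 7.18 in untreated non-SP cells, 6.89, 6.60 and 6.47 in untreated SP cells, 6.88, 5.70 and 5.89 in treated non-SP cells and 7.23, 6.43 and 5.75 in treated SP cells. Its difference in non-SP cells was -0.70 ± 0.358 (adjusted p = 0.988), with anti-EpCAM replicate 1 inside the untreated range. Pfkfb4 lay between 8.10 and 8.81.

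**Figure D2:**
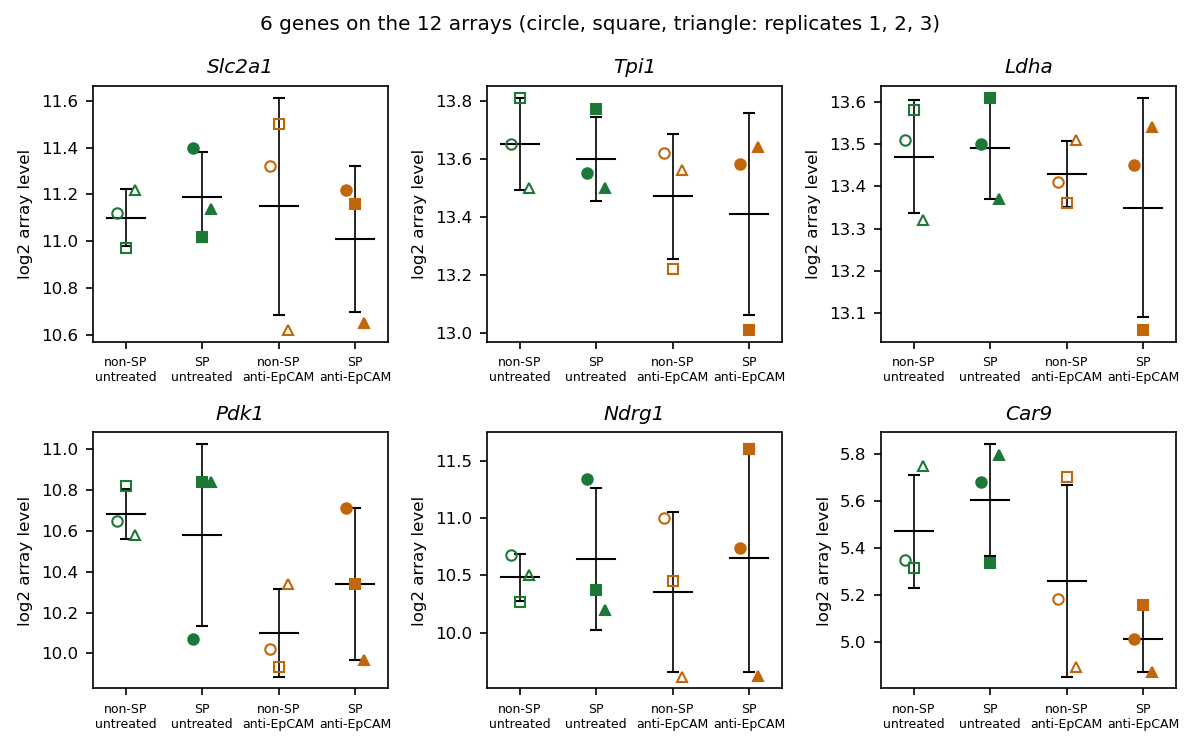
Log2 array level of 6 genes in the 4 groups, with 1 symbol per array (open non-SP, filled SP; green untreated, orange anti-EpCAM; circle, square and triangle for replicates 1, 2 and 3), the group mean as a bar and the SD as whiskers. For Slc2a1 and Ndrg1 the triangles of both treated groups lie lowest, and for Tpi1 the squares are highest among untreated and lowest among treated arrays.

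Hif1a, the oxygen-regulated subunit itself, is controlled mainly at the protein, which arrays do not read. Its transcript read 12.30, 12.44 and 12.49 in untreated non-SP cells, 12.35, 12.52 and 12.54 in untreated SP cells, 12.41, 12.16 and 12.06 in treated non-SP cells and 12.51, 12.63 and 11.92 in treated SP cells, and the groups overlapped. The SP array was the higher in each of the 3 untreated cultures, by 0.05 to 0.08. Egln1 (PHD2), the main prolyl hydroxylase, read 9.53, 9.61 and 9.38 in untreated non-SP and 9.37, 9.60 and 9.58 in untreated SP cells. It read 9.32, 9.35 and 9.10 in treated non-SP and 9.33, 9.27 and 9.18 in treated SP cells, so that treated arrays lay below untreated ones within each fraction. The differences were -0.25 ± 0.146 (adjusted p = 0.988) in non-SP and -0.26 ± 0.146 (adjusted p = 1) in SP cells. Relative to the median gene they were -0.15 and -0.14. With each array centred on its median, SP untreated replicate 1 was the lowest of the 12 for Egln1, so the SP groups then overlapped. Egln3 (PHD3), which hypoxia itself raises, had differences of -0.19 ± 0.161 and -0.22 ± 0.161, with overlapping groups.

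The other transcripts of the hypoxia response comprise secreted factors, membrane carbonic anhydrases and enzymes of the matrix. Ndrg1, a hypoxia- and stress-induced gene, moved most, over 1.98 log2 units. It read 10.68, 10.27 and 10.50 in untreated non-SP cells, 11.34, 10.37 and 10.20 in untreated SP cells, 11.00, 10.45 and 9.62 in treated non-SP cells and 10.74, 11.60 and 9.62 in treated SP cells. Its highest and lowest values thus both came from antibody-treated cells, and the averaged antibody difference was -0.06 ± 0.355.

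Car9, the hypoxia-induced carbonic anhydrase that exports acid equivalents, was dim, with a mean of 5.34. It read 5.35, 5.32 and 5.75 in untreated non-SP cells, 5.68, 5.34 and 5.80 in untreated SP cells, 5.18, 5.70 and 4.89 in treated non-SP cells and 5.01, 5.16 and 4.87 in treated SP cells. Treated SP arrays lay below all untreated SP arrays, while the non-SP groups overlapped. The antibody difference was -0.59 ± 0.218 (SE; 95% interval -1.06 to -0.12; adjusted p = 1) in SP and -0.21 ± 0.218 (adjusted p = 0.988) in non-SP cells. Its unadjusted p in SP cells was under 0.05, also without anti-EpCAM culture 2, but not with each array centred on its median or quantile normalised again, nor without SP untreated replicate 3 or SP anti-EpCAM replicate 3. The test of the difference between these differences gave -0.38 ± 0.308 (adjusted p = 1). Car12, a related enzyme, was lowest in anti-EpCAM culture 3, at 7.15 and 7.06, within a range up to 8.13.

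Vegfa, the vascular growth factor, read 9.96, 9.75 and 9.70 in untreated non-SP cells, 10.06, 9.64 and 9.49 in untreated SP cells, 9.82, 8.96 and 9.65 in treated non-SP cells and 9.94, 9.72 and 9.74 in treated SP cells. In treated cells the SP array was the higher in 3 of 3 cultures, by 0.12, 0.76 and 0.09, and the largest of these, 0.76, came from the culture with the high 3′ signal. The difference was 0.32 ± 0.224 (adjusted p = 1), and with the culture as a block it was 0.32 ± 0.143 (adjusted p = 0.628). The other Vegfa probe set, with a mean of 8.72, gave -0.01 for the same comparison. Adm, the vasodilator adrenomedullin, lay between 6.99 and 8.25, the highest in non-SP untreated replicate 3. Bnip3, which marks mitochondria for removal, was highest in untreated culture 2, at 12.06 and 12.12, and lowest in anti-EpCAM culture 3, at 11.14 and 11.27. Ankrd37, a small hypoxia-induced ankyrin protein, was highest in untreated culture 2, at 10.41 and 10.51, and lowest in anti-EpCAM culture 2, at 9.25 and 9.21. The collagen prolyl hydroxylase subunits P4ha1 and P4ha2 lay between 10.45 and 11.10 and between 10.15 and 10.75, both lowest in anti-EpCAM culture 3.

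Untreated culture 2 had the highest mean for 17 of 32 members (53.1%) against 12% of all genes. The 17 were Hk1, Pfkl, Pfkp, Pfkm, Aldoa, Aldoc, Tpi1, Pgk1, Pgam1, Pkm, Ldha, Pdk1, Pfkfb4, Egln1, Egln3, Bnip3 and Ankrd37, thus 9 of the 10 measured enzymes from phosphofructokinase to pyruvate kinase. With each array centred on its median the count was 15 (15.4% of genes), and after quantile normalising again it was also 15 (14.9%). Slc16a1 and Slc16a3 were lowest in this culture. The upper glycolysis genes stood there a median of 0.26 log2 units above their means in non-SP and 0.31 in SP cells, when the median gene was at -0.05 in both.

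Anti-EpCAM culture 3 had the lowest mean for 14 of 32 members (43.8%) against 26.1% of all genes. These were Slc2a1, Hk2, Ldhb, Pfkfb3, Hif1a, Egln1, Egln3, Adm, Car9, Car12, Bnip3, Ndrg1, P4ha1 and P4ha2. With centring the count was 10 (13.4% of genes) and after quantile normalising again 13 (18%). The 9 other hypoxia response genes stood at a median of -0.37 from their means in non-SP and -0.44 in SP cells, while the lower glycolysis genes stood at 0.01 and 0.06. On these arrays the median gene was at -0.09 and -0.07. The actin 3′ minus 5′ signal of this culture was 0.259 in non-SP and 0.183 in SP cells, inside or just below the range of the arrays other than those of anti-EpCAM culture 2.

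Anti-EpCAM culture 2 had the lowest mean for 12 members (37.5%) against 31.9% of genes, for 5 (24.6%) with centring and for 4 (20.1%) after quantile normalising again. Its SP array alone held the lowest value of 11 members (20% of genes), among them Hk1, Tpi1, Pgk1, Pkm and Ldha, and of 4 with centring (10.3%) and 8 after quantile normalising again (14.9%). It was also the array with the highest 3′ minus 5′ signal, whose part in these values was not tested.

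**Figure D3:**
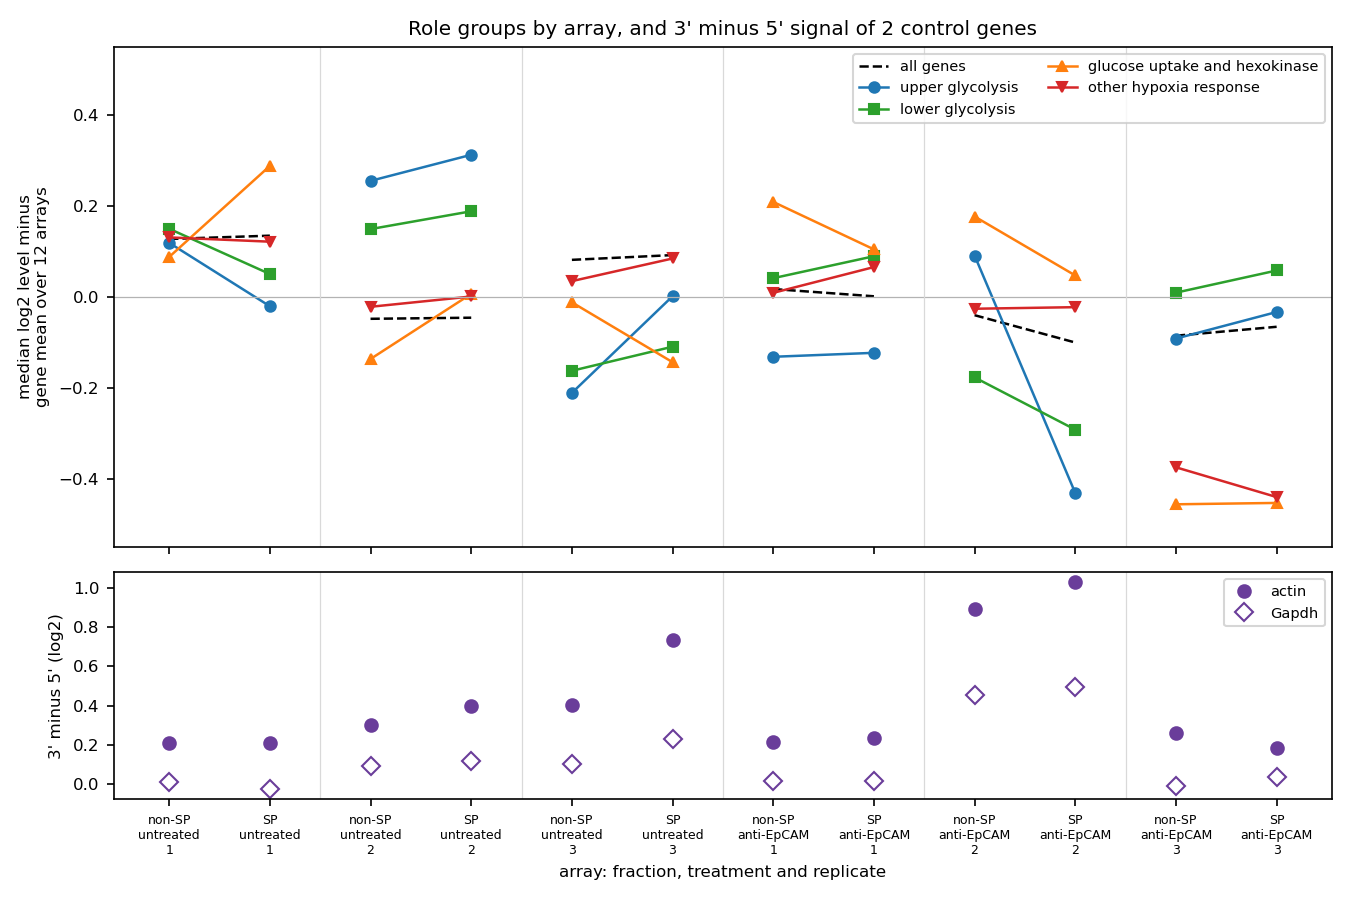
Upper panel: median log2 level of 4 role groups and of all genes (dashed) on each array, relative to the mean of each gene over 12 arrays, with lines joining the 2 arrays of a culture. Lower panel: 3′ minus 5′ log2 signal of the actin and Gapdh control probes. Upper glycolysis is highest in untreated culture 2 and lowest on the SP array of anti-EpCAM culture 2, where the actin signal reaches 1.03, and the glucose uptake and other hypoxia groups are lowest in anti-EpCAM culture 3.

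The first comparison asks whether the dye-exporting cells differ from the rest in untreated cultures. Over the list the median SP minus non-SP difference was -0.01 log2 units against 0.01 for all genes, with 15 of 32 above 0 (53.7% of genes). No member passed at an adjusted p under 0.05 (0% of genes; limma), and none at an unadjusted p under 0.05, which 3 genes passed higher (0.0165%) and 1 lower (0.0055%). That test did not use the pairing of arrays by culture. With the culture as a block 305 genes had an unadjusted p under 0.05, no member among them. The median interval then reached 0.268 to either side, against 0.46 without the block. The differences ran from -0.29 for Ldhb to 0.22 for Pfkp. SP was above non-SP in all 3 cultures for Pfkp, Pgk1, Hif1a and Car9, 12.5% of members against 13.5% of genes. It was below in all 3 for Tpi1, 3.12% against 10.3%. Counts of 4 and 1 of 32 do not set the members apart from all genes. For no member did all 3 SP arrays lie above (1.24% of genes) or below (1.13%) all non-SP arrays.

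In antibody-treated cells the median was -0.04 against -0.03 for all genes, with 11 of 32 above 0 (42.3% of genes). No member passed at an adjusted or an unadjusted p under 0.05, which 54 genes passed higher (0.297%) and 73 lower (0.401%) unadjusted. With the culture as a block 1311 genes had an unadjusted p under 0.05, again no member among them. SP was above non-SP in every culture for Vegfa (6.56% of genes) and below for Car9 (11.1%). No member had all SP arrays above (0.572%) or below (1.78%) all non-SP arrays. All 6 upper glycolysis genes had SP minus non-SP differences below 0 (5 of 6 with each array centred on its median), with a median of -0.12, but without anti-EpCAM culture 2 their median was 0.02, with 4 of 6 above 0. Without it the median of all 32 members was 0.02.

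Averaged over both treatments the members' median was 0.00 against -0.01, and 95% intervals lay within a 2-fold change for 32 of 32 members (99.3% of genes). Within untreated cells they did so for 30 of 32 (96.5%) and within treated cells for 29 of 32 (93.4%). No gene of the list had an unadjusted p under 0.05, which 0.055% of genes had higher and 0.0495% lower. With the culture as a block 388 genes had one, and no member did. No member had the same sign in all 6 cultures, which 0.682% of genes had above and 0.786% below 0. With the culture as a block the intervals within each treatment also lay inside a 2-fold change for 32 of 32 members in untreated cells (99.6% of genes) and in treated cells (98.6%).

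The next comparison asks how treated cells differ from untreated cells within each fraction. In non-SP cells the members' median was -0.14 against -0.10 for all genes, with 5 of 32 above 0 (29.1% of genes). In SP cells it was -0.18 against -0.12, with 6 of 32 above 0 (21.6%). Averaged over both it was -0.17 against -0.11, with 2 of 32, Ldhb and Slc16a3, above 0 (20.6%). Most genes on the arrays thus read lower after antibody, and the share of members above the median gene was 10, 10 and 12 of 32 (50% of genes). Single arrays decided the first 2 of these counts. Without non-SP untreated replicate 2 it was 18 of 32 in non-SP cells, with the members' median 0.04 above the median gene, and without SP untreated replicate 2 it was 20 of 32 in SP cells, 0.03 above. With 1 array left out the count ran from 9 to 18 in non-SP and from 5 to 20 in SP cells. The sign of the medians depended on scaling: with each array centred on its median the members' medians were 0.00, 0.01 and 0.00, and those of all genes 0.04, 0.08 and 0.06, so that the members' distance from the median gene stayed at -0.04, -0.07 and -0.05. Intervals lay inside a 2-fold change for 27 of 32 members in non-SP (90.3% of genes) and 29 of 32 in SP cells (90.5%).

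Of the members, Pdk1 in non-SP cells had an unadjusted p under 0.05 (2.7% of genes lower) and Car9 in SP cells (4.48%). Arrays did not overlap, with antibody lower, for Pdk1 and Egln1 in the non-SP fraction (6.62% of genes) and for Pfkp, Egln1 and Car9 in the SP fraction (8.04%). Over both fractions together, the treated and untreated culture means did not overlap for Egln1 (6.95%). No member was higher without overlap (1.19%, 0.434% and, for culture means, 0.616% of genes). None had an unadjusted p under 0.05 with a higher level (0.517%, 0.11% and 0.17%). In the average over both fractions Pdk1 was again the member with such a p on the lower side (2.36%). Counts of 2, 3 and 1 of 32 are close to these shares.

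By role, the upper glycolysis genes had a median antibody difference of -0.28 in SP cells, with 6 of 6 below the median gene, and of -0.19 in non-SP cells, with 4 of 6 below it. Averaged over both fractions it was -0.20, again with 6 of 6 below, and with centring or quantile normalising 6 of 6 stayed below the median gene. Without anti-EpCAM culture 2 only 3 of 6 did, in SP cells and averaged. Without SP untreated replicate 2 it was 2 of 6 in SP cells, and without non-SP untreated replicate 2 it was 1 of 6 in non-SP cells, where the median became 0.02. The 3 oxygen sensing genes had a median of -0.20 averaged and the 9 other hypoxia response genes of -0.22, with 3 of 3 and 6 of 9 below the median gene. Without anti-EpCAM culture 2 these medians were -0.21 and -0.31. Anti-EpCAM culture 3 was not left out as a whole. There the other hypoxia response genes stood at a median of -0.37 from their means in non-SP and -0.44 in SP cells. In anti-EpCAM culture 1 it was 0.01 and 0.07, and in anti-EpCAM culture 2 -0.03 and -0.02. The oxygen sensing genes stood at -0.30 and -0.25 in anti-EpCAM culture 3. They stood at 0.05 and 0.03 in culture 1 and at -0.13 and -0.04 in culture 2. The lower glycolysis genes had a median averaged antibody difference of -0.13 and the glucose uptake genes of -0.07, beside -0.11 for all genes.

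**Figure D4:**
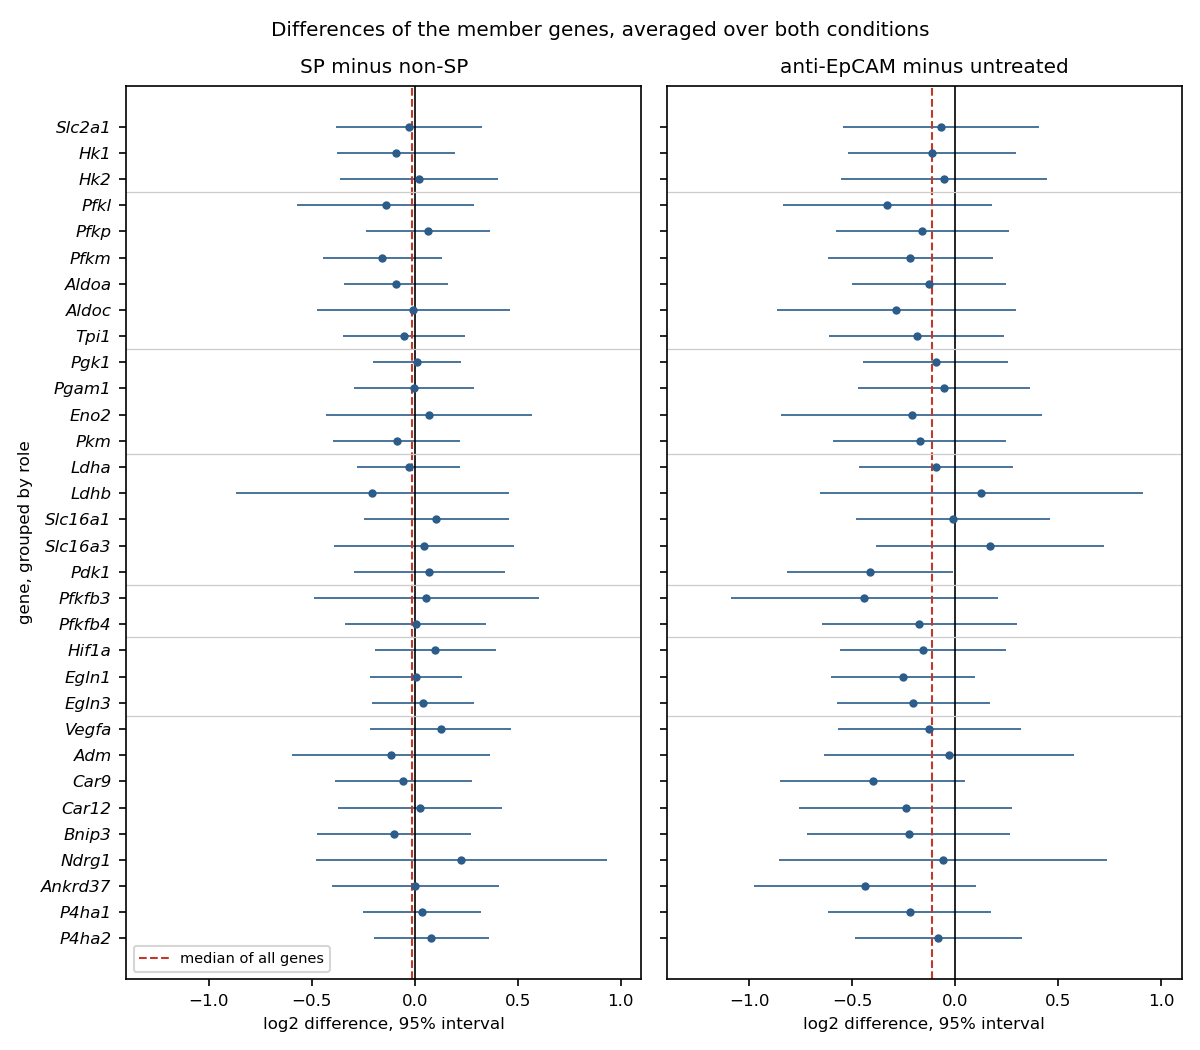
Log2 difference of each of the 32 genes (points) with its 95% interval (bars), SP minus non-SP on the left and anti-EpCAM minus untreated on the right, each averaged over the other condition. The dashed line is the median of all genes, at -0.01 and -0.11. Of the intervals shown, only that of Pdk1 on the right does not reach 0.

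The interaction asks whether the antibody difference is the same in SP and non-SP cells. The members' median was -0.04 against -0.03 for all genes, with 13 of 32 above 0 (43.6% of genes). The estimates ran from -0.38 for Car9 to 0.52 for Pfkfb3, whose dimmer second probe set gave -0.39. The second Vegfa probe set was also opposite in sign, at -0.16 against 0.39. No member had an adjusted or an unadjusted p under 0.05, and 7 genes passed higher (0.0385%) and 36 lower (0.198%) unadjusted. With the culture as a block 1002 genes had an unadjusted p under 0.05, no member among them. Without the block, intervals here reached 0.651 log2 units to either side at the median, against 0.46 within a treatment or fraction. They lay inside a 2-fold change for 22 of 32 members (71.9% of genes).

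The rest of the pathway was described through 3 further lists. None of the 27 measured genes of glucose and pyruvate metabolism, 30 of the hypoxia response and 7 of oxygen sensing passed the adjusted threshold in any comparison. Slc2a3, the high-affinity transporter GLUT3, had the lowest p among them. It had a mean of 4.78 in SP anti-EpCAM against 5.55 in untreated SP cells, both dim, a difference of -0.77 ± 0.199 (adjusted p = 0.877). Pck1, of gluconeogenesis, had -0.61 ± 0.187 (adjusted p = 0.994) at means of 3.64 and 4.25. Arnt, the partner subunit of HIF-1α, had -0.60 ± 0.259 in non-SP cells (adjusted p = 0.988), with means of 8.68 and 9.27. Rora, a hypoxia-induced nuclear receptor, had -0.46 ± 0.19 there (adjusted p = 0.988). Between fractions the lowest p was that of Bpgm, which makes 2,3-bisphosphoglycerate, at 0.52 ± 0.312 in treated cells (adjusted p = 1). The median antibody difference averaged over both fractions was -0.20, -0.15 and -0.09 for the 3 lists, and 22 of 27, 24 of 30 and 6 of 7 genes were below 0, beside a median of -0.11 and 79.4% below 0 for all genes.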

How the data were processed

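RMA was used to summarise probe sets, per the submitters' processing notes, and the authors deposited log2 values. Its version and any later scaling are not known here. Per the labels' protocols, 200 ng of total RNA were amplified from the 3′ end, so that values depend on RNA integrity.

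Of 45101 deposited probe sets, 34958 had 1 gene symbol. The 64 control probe sets were set aside, and the probe set with the highest mean stood for its gene, without a filter on level. The 38 other probe sets of 20 members agreed in sign in 19 to 38 cases per comparison. Differences were tested with limma 3.58.1 in R 4.3.3 (lmFit and eBayes on 4 group means, 8 residual degrees of freedom, two-sided, Benjamini-Hochberg). Averaged antibody differences used culture means (4 residual degrees of freedom). Comparisons between fractions were also fitted with the culture as a block, and comparisons between treatments with the replicate number, although untreated and treated arrays of a number correlated at -0.379 to -0.0054. Simulated arrays with 100 genes changed 2-fold and 100 changed 4-fold were run through the same steps. Their noise was drawn independently for each array, whereas in the data the 2 arrays of a culture correlated at 0.682. Within a treatment or fraction, 46 to 54 of the 100 2-fold changes were recovered, and 17 in the interaction. Averaged, it was 82 between fractions and 68 between treatments. The 68 may be too high for the data, since averaging correlated arrays of a culture removes less noise. Of the 4-fold changes 80 to 99 were recovered, with 3 to 14 false calls per comparison. A true 2-fold change in a gene could thus be missed. Promoter windows were read with Python 3.11.15, and figures drawn with matplotlib 3.10.9.

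The members and lists were chosen with earlier results of these data known. All members are named, and of the other lists, with no gene past the threshold, at most 2 per comparison and list by lowest p.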

Additional observations from a re-analysis of the deposited data

Results flagged for a closer look

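Car9 drew attention because the sign of SP minus non-SP was opposite in the cultures of the 2 treatments. SP was above non-SP in every untreated culture for 13.5% of all genes and below it in every treated culture for 11.1%. The share of genes with both was not counted, so how common the pattern is among all genes is not known. The SP array read higher in 3 of 3 untreated cultures, by 0.33, 0.02 and 0.05, and lower in 3 of 3 treated cultures, with differences of -0.17, -0.54 and -0.02. The interaction was -0.38 log2 units (limma adjusted p = 1), so the difference between the treatments did not pass the test. The treated difference of -0.54 came from anti-EpCAM culture 2, which had the highest 3′ minus 5′ signals, and Car9 was dim throughout.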

How the results depend on the processing

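No gene passed the adjusted threshold in any of the 7 comparisons, as planned or under any alternative run: scaling, a level filter of 6, the mean of a gene's probe sets, eBayes with trend and robust, blocks, each array left out, and both arrays of anti-EpCAM culture 2 left out. Under scaling the members' median antibody difference moved by more than its spread between replicates, 0.0954, in 5 of 6 cases; the other is quantile normalising in SP cells, with -0.112. With each array centred on its median it was 0.002432 in non-SP, 0.01024 in SP and 0.001967 averaged, and after quantile normalising again -0.02768 in non-SP and -0.06945 averaged. With 1 array left out, it ranged from -0.1871 to -0.1075 in non-SP, from -0.2542 to -0.1341 in SP and from -0.1888 to -0.1546 averaged. Between fractions it ranged from -0.05305 to 0.05521 in untreated and from -0.06722 to 0.009544 in treated cells.

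With the culture as replicate block, 305 genes in untreated and 1311 in treated cells had an unadjusted p under 0.05, no member among them, and the median interval reached 0.268 to either side. With the replicate number as replicate block, Pfkfb3 also had an unadjusted p under 0.05 in non-SP cells (difference -0.70, adjusted p 0.871), and Pdk1 lost its own in the average over fractions (adjusted p 0.998), as it did with the culture as a random block (Pdk1's own adjusted p 0.994), with the mean of its probe sets (0.948) and without any 1 of 5 single arrays. No block changed a call. With the mean of all probe sets of a gene, Aldoc and Pfkfb3 in non-SP and Aldoc and P4ha1 in SP cells joined those with an antibody difference at an unadjusted p under 0.05, as did P4ha1 in SP cells and Car9 in the average without anti-EpCAM culture 2.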
